A study of Mus musculus with 8 samples.

Results

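Hemoglobin is built from alpha-globin and beta-globin chains, each holding a heme group, and red cells make it in their precursors, which lose the nucleus but keep globin RNA for a short time as reticulocytes. Whole-heart RNA takes in RNA of the blood in its vessels and chambers. The mouse carries a pair of nearly identical adult alpha-globin genes and, in strains with the single haplotype, a pair of nearly identical adult beta-globin genes. The hemoglobin and erythroid genes described here were taken by name from 8 symbols: the alpha-globins Hba-a1 and Hba-a2, the beta-globins Hbb-bs and Hbb-bt, the erythroid heme synthesis enzyme Alas2, the red cell anion exchanger Slc4a1 (band 3), the alpha-chain chaperone Ahsp and the carbonic anhydrase Car2. Of these, 7 were matched by Ensembl identifier among 53465 Ensembl genes and 141239 features in all. Ahsp was not analysed here.

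RNA was sequenced from hearts of mice at 2 weeks of age. All 8 libraries were labelled Lmna-/-, a knockout of the gene for lamins A and C, filament proteins under the nuclear envelope, on a strain given as Mixed. In 3 of them (replicates 6, 7 and 8) the labels name no vector, and these are called untreated. The other 5 (replicates 1 to 5) carried AAV9 Lmna WT, wild-type LMNA put back with an adeno-associated virus of serotype 9, a gene delivery vector. No wild-type hearts and no hearts with an empty or control vector were analysed here, and LMNA and the vector therefore cannot be told apart as sources of a difference. The labels name no separate animal for each library, so the p-values reflect spread between libraries that may be technical. In bulk tissue, fewer cells of a type and less RNA per cell cannot be told apart.

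Each library held 21439956 to 26492443 counts on features. Lmna itself was at 46.4, 68.7 and 32.3 CPM (counts scaled to a common library size, with TMM factors) in untreated and at 227 to 747 CPM in AAV9 Lmna WT libraries, with no overlap (log2 fold change 3.03, SE 0.46, edgeR adjusted p = 0.00486). Untreated replicate 6 stood apart: 24.7% of its uniquely aligned reads lay outside every feature, against 16.8% and 18.4% in the other untreated libraries and 12.1 to 12.8% in AAV9 Lmna WT libraries. The group means were 19.9% ± 4.19 (SD, n = 3) and 12.4% ± 0.364 (SD, n = 5), an exact two-sided permutation p of 0.0179 and 0.0536 after adjustment over 3 library measures. The heart muscle markers Myh6, Tnnt2, Ttn and 7 others summed to 96832 to 162754 CPM per library, and the 7 matched red cell genes to 404 to 1187 CPM.

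The twin globin genes had to be told apart by very little sequence, which limits what a count of either one stands for. Hba-a1 (ENSMUSG00000069919) lies at chr11:32283511-32284465 on the plus strand of GRCm38 and Hba-a2 (ENSMUSG00000069917) at chr11:32296489-32297298, also plus. In the GENCODE M21 transcripts their coding sequences were identical at 428 of 429 bases. The single difference was C381T, counted from 1 at the A of the start codon, with the Hba-a1 base first. It lies in codon 127, GAC in Hba-a1 and GAT in Hba-a2, both aspartate. The stretch around it is shown because it is the only coding sequence by which a read can be placed in one alpha gene and not in its twin, with the differing base in capitals. It spans chr11:32284313-32284373 in Hba-a1 and chr11:32297130-32297190 in Hba-a2, GRCm38, plus strand, within the last coding exon.
Hba-a1: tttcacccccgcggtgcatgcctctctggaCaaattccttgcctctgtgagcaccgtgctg
Hba-a2: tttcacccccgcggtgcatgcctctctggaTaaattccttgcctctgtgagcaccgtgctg

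The beta pair was as close. Hbb-bs (ENSMUSG00000052305) lies at chr7:103826534-103828096 and Hbb-bt (ENSMUSG00000073940) at chr7:103812524-103813996, both on the minus strand, and 443 of 444 coding bases were identical. The difference was C417T in codon 139, GCC in Hbb-bs and GCT in Hbb-bt, both alanine. The end of the coding sequence is shown with that base in capitals, from chr7:103826665-103826722 in Hbb-bs and chr7:103812656-103812713 in Hbb-bt, GRCm38, minus strand.
Hbb-bs: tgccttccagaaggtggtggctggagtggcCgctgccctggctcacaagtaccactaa
Hbb-bt: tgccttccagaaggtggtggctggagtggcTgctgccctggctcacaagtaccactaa

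Of 380 windows of 50 bases in the coding sequence of either alpha gene, 49 (12.9%) occurred in no other annotated transcript. For the beta genes 28 of 395 (7.09%) did. At 100 bases the shares were 14.8% and 8.12%, and the read length is not given in the sources used here. Alpha and beta coding sequences shared 59.0 to 59.2% of aligned bases, and no window was shared between the alpha and the beta genes. All coding windows of Slc4a1 and Car2, and 93.2% of those of Alas2, were unique. Alas2 shares 311 bases of exon with Apex2 on the opposite strand, 12.9% of its exon length, and reads there are ambiguous when counted without strand. Over whole transcripts, untranslated ends included, 211 of 650 windows of 50 bases were unique in Hba-a1 but 66 of 505 in Hba-a2, and 198 of 579 in Hbb-bs and 273 of 654 in Hbb-bt. These windows were checked against annotated transcripts only, not the genome. The annotated stretch before the start codon is 196 bases in Hba-a1 and 35 in Hba-a2. Most of the extra Hba-a1 stretch has the same bases as the sequence just upstream of Hba-a2. The transcript windows of the alpha twins therefore do not measure how many reads could be placed in each. Globin counts come from the uniquely placed reads alone, so a share of counts between twins cannot be read as a share of RNA. Which base the animals carried at the 2 positions was not analysed here.

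No hemoglobin or erythroid gene was called different between the groups, which does not show that the groups were equal. With edgeR's quasi-likelihood test and Benjamini-Hochberg adjustment over 26717 features, 0 of 7 were called. By the same test 0 of 7 had an unadjusted p under 0.05, as 40.6% of features did. On simulated counts this test recovered 1.49% of 1.5-fold, 20.9% of 2-fold and 57.6% of 4-fold changes. That simulation gave only 55 calls in all, so these shares need not hold for the real counts. DESeq2 and limma-voom also called 0 of the 7 genes, beside 8153 and 6893 of 26717 features. Of all features tested, edgeR called 25.7%, 10.6% higher and 15% lower in AAV9 Lmna WT. Of protein-coding genes it called 24.5%, 18.4% higher and 6.07% lower. Scaled by library totals alone, 1598 features were called higher and 4679 lower, against 2843 and 4015 with TMM. Group ranges overlapped for all 7 genes, whereas they did not overlap for 29.9% of features and 29.7% of protein-coding genes. The median log2 fold change of the 7 was 0.12, beside -0.03 for all features and 0.21 for protein-coding genes, and 5 of the 7 values were positive. With Ensembl features alone and after a correction for transcript length and GC content the median of the 7 was -0.05 and -0.24, settings in which Hba-a1, Hbb-bs and Car2 were negative. Without untreated replicate 6, which stood apart, 0 of 7 were called, beside 4227 of 27629 features. In that setting Hba-a1 and Hbb-bs were at -0.20 and -0.14. The members were chosen with earlier results known, so these counts describe them and test nothing about the set.

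Among the alpha-globins, Hba-a1 carried most of the signal. Its raw counts were 3554, 6620 and 5911 in untreated replicates 6, 7 and 8 and 6564, 7216, 2022, 3260 and 8277 in AAV9 Lmna WT replicates 1 to 5. Untreated replicate 6 and AAV9 Lmna WT replicates 3 and 4 were low, and the other 5 libraries high, so that the groups overlapped over most of their range. The means were 232 ± 75.1 CPM (SD, n = 3) and 238 ± 117 CPM (SD, n = 5), a log2 fold change of 0.04 (SE 0.453, 95% interval -1.01 to 1.08, edgeR adjusted p = 0.959). In fold terms the interval ran from 0.497 to 2.12.

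Hba-a2 was a minor gene by count. It had 0, 52 and 30 counts in untreated replicates 6, 7 and 8 and 57, 37, 345, 564 and 40 in AAV9 Lmna WT replicates 1 to 5. AAV9 Lmna WT replicates 3 and 4 were far above every other library, and the remaining AAV9 Lmna WT libraries lay within 1.40 to 2.66 CPM, beside 0, 2.22 and 1.36 CPM in untreated. The means were 1.19 ± 1.12 CPM (SD, n = 3) and 9.29 ± 10.4 CPM (SD, n = 5). The log2 fold change of 2.96 (SE 1.41, 95% interval -0.36 to 6.28) did not pass the test (edgeR adjusted p = 0.159).

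**Figure D1:**
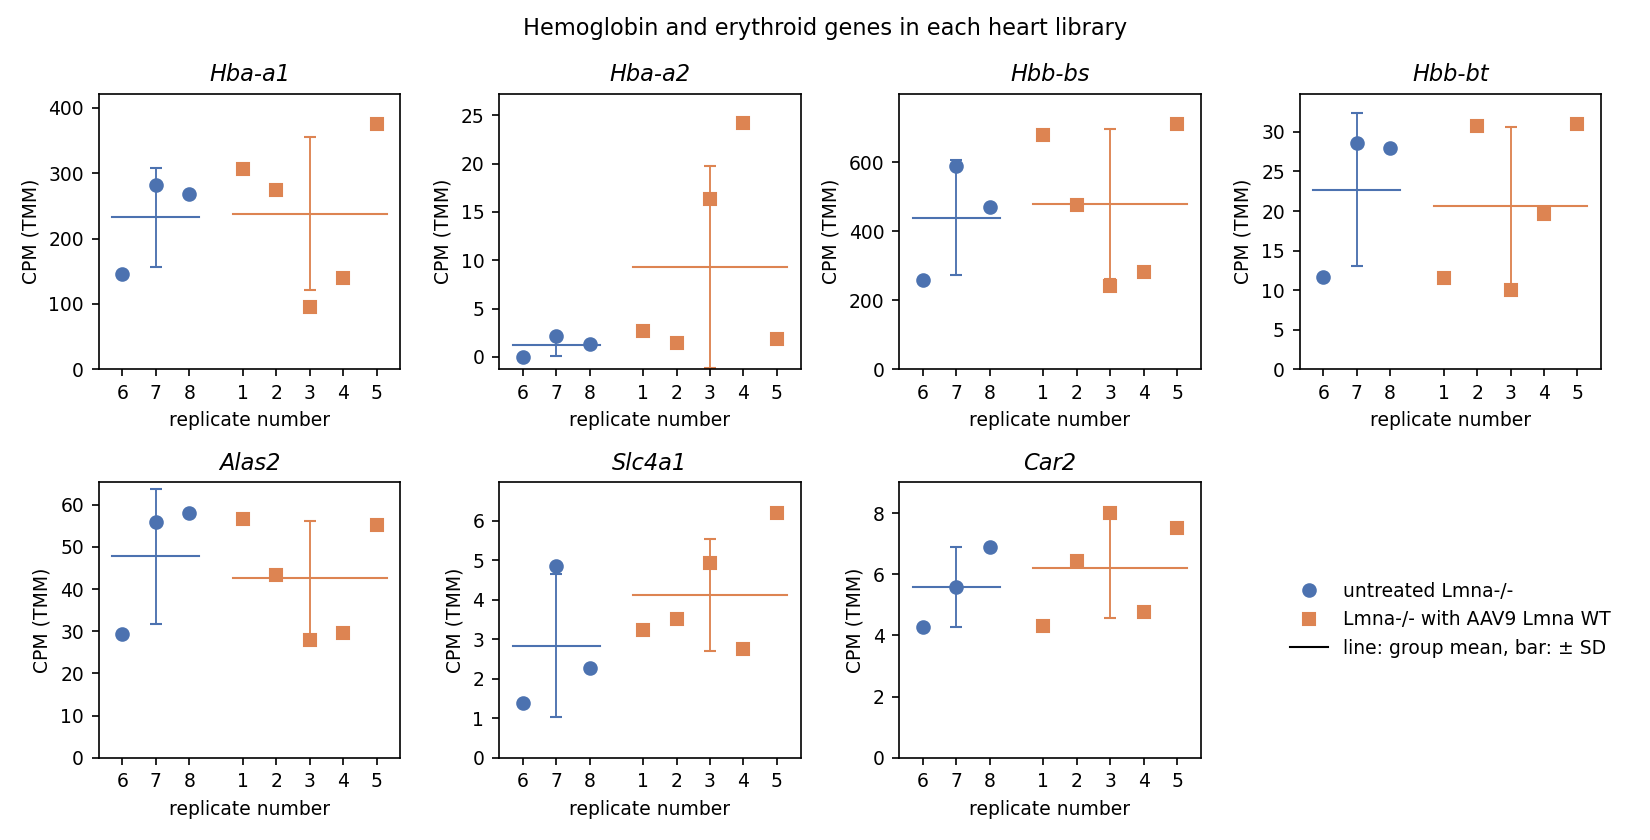
Level of each of the 7 genes (CPM after TMM scaling, linear axis) in the 3 untreated (circles, replicates 6 to 8) and 5 AAV9 Lmna WT libraries (squares, replicates 1 to 5), with the group mean as a line and the SD as a bar. Hba-a1, Hbb-bs and Alas2 are lowest in the same 3 libraries, untreated 6 and AAV9 Lmna WT 3 and 4, while Hba-a2 is high only in AAV9 Lmna WT 3 and 4, at 16.4 and 24.2 CPM.

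The shares of the twins within a library need no scaling. Hba-a2 made up 0, 0.779 and 0.505% of alpha-globin counts in untreated replicates 6, 7 and 8 and 0.861, 0.510, 14.6, 14.7 and 0.481% in AAV9 Lmna WT replicates 1 to 5. The value of 0 came from 3554 alpha counts, which allows a share of up to 0.0844% (3 counts). The exact (Clopper-Pearson) 95% intervals of AAV9 Lmna WT replicates 3 and 4 ran from 13.2 to 16.1% and from 13.6 to 15.9%, and those of the other 6 libraries reached at most 1.11%. Such intervals cover counting error alone. These 2 libraries had an alpha twin share unlike the rest, and both were also low in Hba-a1.

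The beta twins showed another order of libraries. Hbb-bt made up 4.28, 4.62 and 5.62% of beta-globin counts in untreated replicates 6, 7 and 8, and 1.68, 6.04, 3.99, 6.51 and 4.18% in AAV9 Lmna WT replicates 1 to 5. AAV9 Lmna WT replicate 1 was lowest, with an exact 95% interval of 1.48 to 1.90% that met no other library's, and replicates 3 and 4 did not stand apart as they did for the alpha twins. The means of 4.84% ± 0.698 (SD, n = 3) and 4.48% ± 1.92 (SD, n = 5) differed by less than the spread between libraries.

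**Figure D2:**
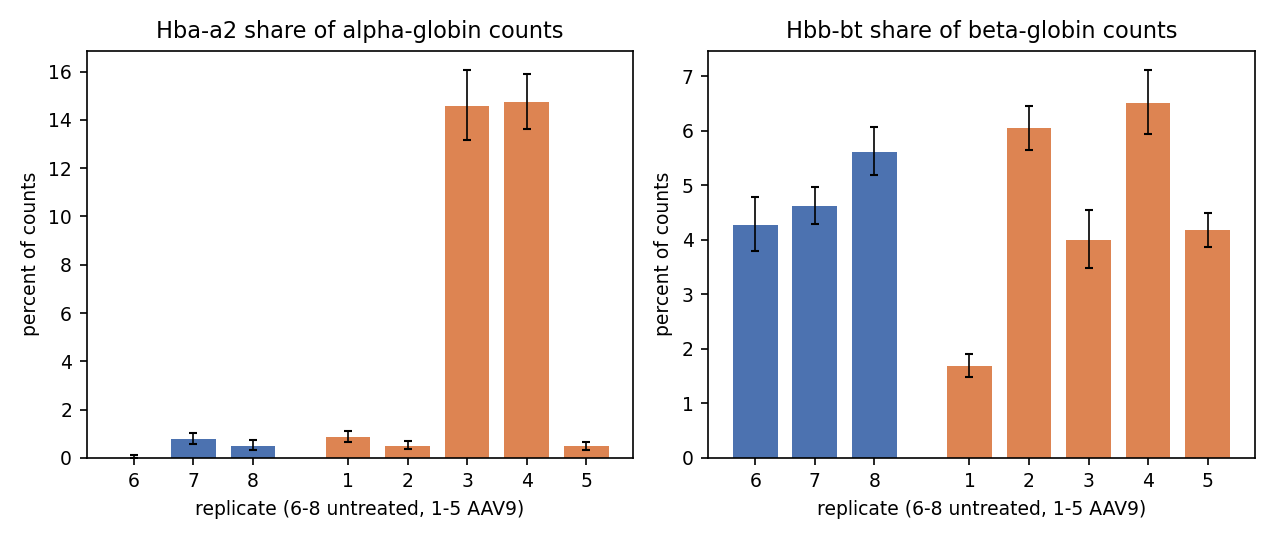
Share of alpha-globin counts on Hba-a2 (left) and of beta-globin counts on Hbb-bt (right), in percent, for each library (replicates 6 to 8 untreated, 1 to 5 AAV9 Lmna WT), with exact 95% binomial intervals. AAV9 Lmna WT replicates 3 and 4 stand at 14.6 and 14.7% on the left, and AAV9 Lmna WT replicate 1 at 1.68% on the right.

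Hbb-bs had the highest counts of the 7 genes in every library. There were 6333, 13838 and 10343 counts in untreated replicates 6, 7 and 8 and 14517, 12590, 5073, 6574 and 15687 in AAV9 Lmna WT replicates 1 to 5. Untreated replicate 6 and AAV9 Lmna WT replicates 3 and 4 were again the 3 lowest, at 241 to 282 CPM, and the other 5 ran from 469.5 to 710 CPM. The means were 440 ± 167 CPM (SD, n = 3) and 478 ± 217 CPM (SD, n = 5), with a log2 fold change of 0.12 (SE 0.422, 95% interval -0.85 to 1.09, edgeR adjusted p = 0.850).

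Hbb-bt was lower throughout. Its counts were 283, 670 and 616 in untreated replicates 6, 7 and 8 and 248, 810, 211, 458 and 684 in AAV9 Lmna WT replicates 1 to 5. Here AAV9 Lmna WT replicate 1 joined the low libraries in place of replicate 4, and the untreated range lay inside that of AAV9 Lmna WT. The means of 22.7 ± 9.62 CPM (SD, n = 3) and 20.6 ± 10.05 CPM (SD, n = 5) gave a log2 fold change of -0.14 (SE 0.454, 95% interval -1.18 to 0.90, edgeR adjusted p = 0.836).

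Alas2 (ENSMUSG00000025270, chrX:150547375-150570638, plus strand) encodes the first and rate-limiting enzyme of heme synthesis in red cell precursors, and Alas1 does the same step elsewhere. The Alas2 counts were 714, 1309 and 1280 in untreated replicates 6, 7 and 8 and 1213, 1143, 588, 689 and 1216 in AAV9 Lmna WT replicates 1 to 5. The same 3 libraries as for Hba-a1 and Hbb-bs were lowest, at 27.9 to 29.6 CPM, and the other 5 ran from 43.3 to 58.1 CPM. The log2 fold change was -0.17 (SE 0.302, 95% interval -0.85 to 0.52, edgeR adjusted p = 0.699).

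Slc4a1 (ENSMUSG00000006574, chr11:102348824-102366203, minus strand) exchanges chloride for bicarbonate in the red cell membrane. It had 34, 114 and 50 counts in untreated replicates 6, 7 and 8 and 69, 93, 104, 64 and 137 in AAV9 Lmna WT replicates 1 to 5. Untreated replicate 6 was lowest at 1.39 CPM and AAV9 Lmna WT replicate 5 highest at 6.20 CPM, and untreated replicate 7, at 4.86 CPM, lay inside the AAV9 Lmna WT range of 2.75 to 6.20 CPM. The means of 2.84 ± 1.80 CPM (SD, n = 3) and 4.13 ± 1.42 CPM (SD, n = 5) gave a log2 fold change of 0.54 (SE 0.396, 95% interval -0.34 to 1.41, edgeR adjusted p = 0.324). This value depended on which untreated libraries were kept: without untreated replicate 7 Slc4a1 was called higher (1.19, edgeR adjusted p = 0.0253). In that setting 4773 of 28153 features were called higher, against 2843 of 26717 with all libraries. Without untreated replicates 6 and 8 the log2 fold change of Slc4a1 was -0.23.

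Car2 (ENSMUSG00000027562, chr3:14886273-14900770, plus strand), which interconverts carbon dioxide and bicarbonate, is made by many tissues besides red cells. Its counts were 104, 131 and 152 in untreated replicates 6, 7 and 8 and 92, 170, 169, 111 and 166 in AAV9 Lmna WT replicates 1 to 5. AAV9 Lmna WT replicate 3, the lowest library for Hba-a1, Hbb-bs, Hbb-bt and Alas2, was the highest for Car2, at 8.02 CPM. The group ranges were 4.27 to 6.90 and 4.30 to 8.02 CPM, and the log2 fold change was 0.15 (SE 0.248, 95% interval -0.39 to 0.70, edgeR adjusted p = 0.661).

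Per kilobase of annotated exon, the mean levels in untreated libraries fell in the order Hbb-bs (573 ± 218 CPM per kb, SD, n = 3), Hba-a1 (286 ± 92.5), Hbb-bt (32.3 ± 13.7), Alas2 (19.9 ± 6.67), Car2 (2.31 ± 0.544), Hba-a2 (1.79 ± 1.68) and Slc4a1 (0.581 ± 0.369). The neighbours Hbb-bs and Hba-a1, Hbb-bt and Alas2, Car2 and Hba-a2, and Hba-a2 and Slc4a1 had overlapping mean ± SD. In AAV9 Lmna WT libraries the order was the same except that Hba-a2 (13.9 ± 15.6 CPM per kb, SD, n = 5) stood above Car2 (2.56 ± 0.677). Globin levels on this scale count uniquely placed reads only and cannot be set against Alas2, Slc4a1 or Car2 as amounts of RNA.

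The ratio of beta-globin to alpha-globin varied less than the levels. Hba-a1 differed 3.91-fold and Hbb-bs 2.95-fold between the lowest and the highest library, but beta-globin counts per alpha-globin count stayed between 1.84 and 2.23. They were 1.86, 2.17 and 1.84 in untreated replicates 6, 7 and 8 and 2.23, 1.85, 2.23, 1.84 and 1.97 in AAV9 Lmna WT replicates 1 to 5, means of 1.96 ± 0.186 (SD, n = 3) and 2.02 ± 0.196 (SD, n = 5). Hbb-bs counts per Alas2 count ran from 8.08 to 12.9. Hbb-bs per Slc4a1 varied more than the level of Hbb-bs, from 48.8 in AAV9 Lmna WT replicate 3 to 210 in AAV9 Lmna WT replicate 1. All 4 globins together made up 0.0355 to 0.111% of the counts on features.

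**Figure D3:**
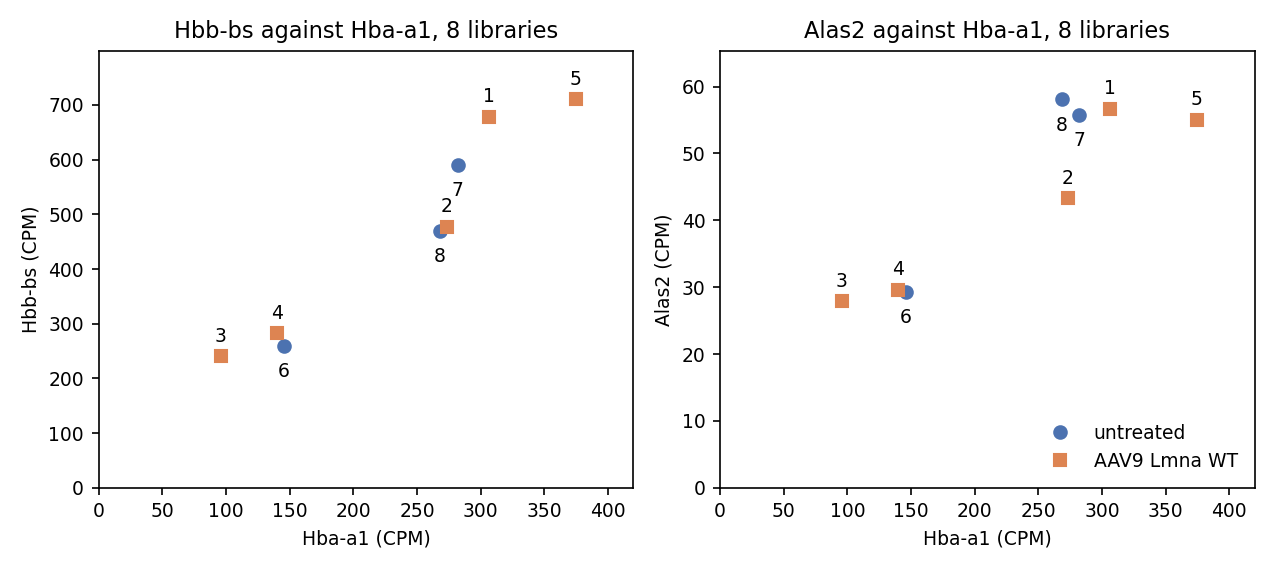
Hbb-bs (left) and Alas2 (right) against Hba-a1, in CPM on linear axes, each point a library with its replicate number (circles untreated, squares AAV9 Lmna WT). The libraries fall into a lower 3 and a higher 5, both holding libraries of each group: from the third to the fourth lowest library Hba-a1 rises from 146 to 268 CPM and Alas2 from 29.6 to 43.3 CPM.

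Because the libraries fell into these sets of 3 and 5, no correlation between the genes was tested. The 3 low libraries were untreated replicate 6 and AAV9 Lmna WT replicates 3 and 4, so the split crossed the groups. The step from the third to the fourth lowest library was 1.84-fold for Hba-a1, 1.66-fold for Hbb-bs and 1.46-fold for Alas2. It was 1.17-fold for Slc4a1 and for Car2. Their 3 lowest libraries also held untreated replicate 6 and AAV9 Lmna WT replicate 4, but untreated replicate 8 (Slc4a1) or AAV9 Lmna WT replicate 1 (Car2) in place of AAV9 Lmna WT replicate 3. The globins Hbb-bt and Hba-a2 did not follow the split either. For Hbb-bt the step was 1.69-fold, above untreated replicate 6 and AAV9 Lmna WT replicates 1 and 3. For Hba-a2 it was 1.29-fold, above untreated replicates 6 and 8 and AAV9 Lmna WT replicate 2. Reads outside features, high in untreated replicate 6, were at 12.1 and 12.8% in AAV9 Lmna WT replicates 3 and 4, the lowest and the highest of the AAV9 Lmna WT libraries.

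RefSeq promoter sequences (GRCm38.p6) were at hand for 5 of the genes, and motifs were searched on both strands of the 250 bases before each start: AGATAA or TGATAA, letters bound by GATA factors; CCACACCC, bound by the erythroid factor KLF1; CCAAT; and TATAAA. The GATA letters stood in the windows of Hba-a1 (183 to 178 bases upstream), Hba-a2 (186 to 181), Hbb-bs (210 to 205) and Alas2 (86 to 81), and in 16.6% of 32817 promoters of the same length. CCACACCC stood in Hbb-bs alone of the 5 genes with a promoter sequence (93 to 86 bases upstream), and in 3.19% of all. CCAAT stood in all 4 globin promoters and in 33.8% of all, and TATAAA in Hbb-bt and Alas2 and in 12.4% of all. These matches are descriptions of letters and not sites of binding.

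Heme is made by an enzyme chain that runs in mitochondria and cytosol. Some genes of this chain and of mitochondrial import, Alas2 aside, were higher in AAV9 Lmna WT libraries. Of 13 such genes, 12 were tested, and 6 were called higher, 0 lower and 6 in neither direction (edgeR adjusted p under 0.05), against 18.4% of protein-coding genes called higher. Uros, uroporphyrinogen III synthase, was at 9.72, 16.5 and 13.1 CPM in untreated replicates 6, 7 and 8 and at 20.1 to 26.6 CPM in AAV9 Lmna WT, with no overlap (log2 fold change 0.86, SE 0.171, edgeR adjusted p = 0.00715). Abcb10, a mitochondrial inner membrane transporter, rose by 0.55 (SE 0.111, adjusted p = 0.00732) and Ppox, protoporphyrinogen oxidase, by 0.41 (SE 0.108, adjusted p = 0.0199).

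Also called in the chain were Alas1 (0.48, edgeR adjusted p = 0.0241), the non-erythroid counterpart of Alas2, and Urod (0.38, adjusted p = 0.0425). Fech, which inserts iron into the ring, stood at 0.07 and the mitochondrial iron importer Slc25a37 at 0.06, neither called. The count of 6 fell to 2 when Ensembl features were scaled and tested alone and to 2 after a correction for transcript length and GC content, settings that shift the median of all log2 fold changes by -0.19 and -0.23. It was 5 without untreated replicate 6, 3 without AAV9 Lmna WT replicate 3 or replicate 5, and 3 without untreated replicates 6 and 8. Ppox shares 17.5% of its exon length with B4galt3 and Abcb10 10.3% with an antisense gene, and reads there cannot be assigned without strand.

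**Figure D4:**
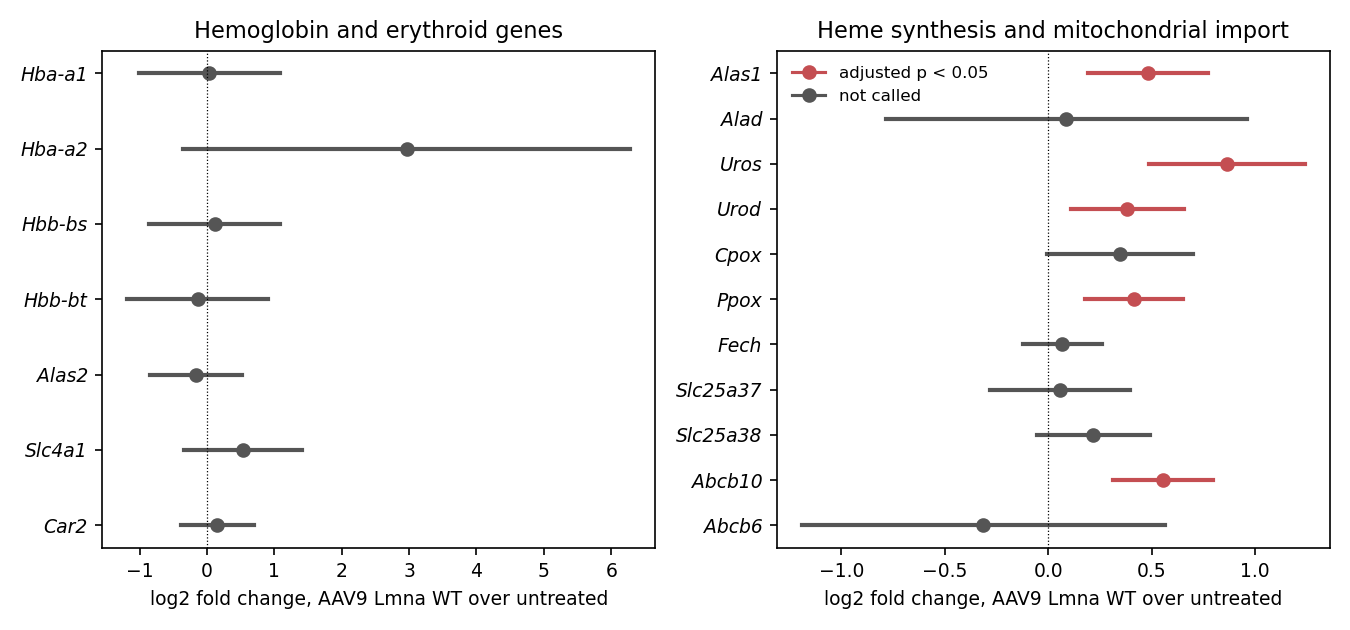
Log2 fold change, AAV9 Lmna WT (n = 5) over untreated (n = 3), with 95% intervals from the edgeR fit, for the 7 hemoglobin and erythroid genes (left) and 11 of the 12 tested genes of heme synthesis and mitochondrial import (right), red where the adjusted p is under 0.05. All 7 intervals on the left cross 0, and the 5 called genes shown on the right lie above it.

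Among other globins, the embryonic genes Hba-x, Hbb-y and Hbb-bh2 had 0 counts in all 8 libraries, which allows a level of up to 0.0163 CPM (3 counts over the 8 libraries), and Hbb-bh1 had 19 counts in all. Myoglobin (Mb), the oxygen store of heart muscle and not a red cell gene, was at 6789 ± 638 CPM (SD, n = 3) in untreated and 9783 ± 272 CPM (SD, n = 5) in AAV9 Lmna WT, a log2 fold change of 0.53 (SE 0.092, edgeR adjusted p = 0.00447). Its call was lost when Ensembl features were tested alone (0.33, edgeR adjusted p = 0.0892) and when length and GC content were corrected for (0.12, adjusted p = 0.615).

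Genes of nucleated red cell precursors had few counts. Over all 8 libraries, the erythroid transcription factor genes Gata1, Klf1 and Hemgn had 18, 23 and 16 counts, Gfi1b had 0, the Rh-associated glycoprotein Rhag had 5, the carbonic anhydrase Car1 had 1, and Cldn13 had 0. All of these were under the filter on low counts. These are reads on 1 feature only, and overlaps with NONCODE features, which would remove reads as ambiguous, were not checked.

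Of 14 genes in the list of erythroid transcription factors and the erythropoietin receptor, 9 were tested, 1 was called higher and 2 lower, with a median of -0.04. Epor, the receptor, was called higher at 0.492 to 1.41 CPM in untreated and 1.37 to 2.88 CPM in AAV9 Lmna WT (1.30, SE 0.368, edgeR adjusted p = 0.0264), ranges that overlap, and lost its call with untreated replicate 6, AAV9 Lmna WT replicate 2, 3 or 5 left out, and with Ensembl features alone (1.12, adjusted p = 0.0684). Cbfa2t3, a corepressor, fell by 0.61 (SE 0.127, adjusted p = 0.00850). Sox6, which also acts in muscle, fell by 0.69 (SE 0.147, adjusted p = 0.00939), and was at -0.21 without untreated replicates 6 and 8. Correcting for length and GC content ended both calls (Cbfa2t3 -0.48, adjusted p = 0.0590; Sox6 -0.60, adjusted p = 0.0672).

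Of 16 red cell membrane genes, 11 were tested, 1 was called higher and 1 lower, with a median of 0.11. Epb41, protein 4.1, fell by 0.53 (SE 0.174, adjusted p = 0.0463), and was at -0.25 without untreated replicate 6 (adjusted p = 0.212) and -0.03 without untreated replicates 6 and 8.

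Of 17 reticulocyte and late erythroid genes, 13 were tested and 1 was called, Prdx2, a peroxidase abundant in red cells and made in many others (0.43, SE 0.094, edgeR adjusted p = 0.00996, no overlap). With Ensembl features alone it was at 0.24 and not called (adjusted p = 0.112). Of 12 iron uptake and storage genes, 10 were tested, 0 were called higher and 1 lower: Ireb2, an iron-responsive element binding protein, at 71.4 to 90.5 CPM in untreated and 38.4 to 45.4 CPM in AAV9 Lmna WT (-0.93, SE 0.0999, adjusted p = 0.000649). The call of Ireb2 held in all 18 alternatives. Of 11 hemoglobin and heme clearance genes, 9 were tested, with Slc48a1, a heme transporter (0.41), and Blvra, biliverdin reductase (0.63), called higher and Lrp1, a receptor for heme bound to hemopexin (-0.52), called lower. The edgeR adjusted p-values were 0.0151, 0.0221 and 0.0234, and the 2 higher calls were lost with Ensembl features alone. All 3 calls were lost after the length and GC correction, with Lrp1 at -0.098 (adjusted p = 0.707), and that of Lrp1 also without untreated replicate 7 or 8 or AAV9 Lmna WT replicate 2 or 3.

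The families of Car2 and Slc4a1 gave their own picture. Of 14 other carbonic anhydrase genes, 9 were tested and 1 was called higher, Car7, a cytosolic enzyme (4.16 ± 1.10 CPM, SD, n = 3, against 9.66 ± 1.03, SD, n = 5; log2 fold change 1.22, edgeR adjusted p = 0.00392), a call that held in all 18 alternatives. Of 8 other SLC4 genes, 6 were tested, 0 were called higher and 2 lower, the sodium-coupled bicarbonate transporter genes Slc4a4 (-0.71, adjusted p = 0.00752) and Slc4a8 (-0.91, adjusted p = 0.0227). Both calls were lost after the length and GC correction (edgeR adjusted p = 0.0514 and 0.166) and without untreated replicates 6 and 8 (0.131 and 0.208), where Slc4a4 was at -0.35, and that of Slc4a8 also without untreated replicate 6 or AAV9 Lmna WT replicate 4.

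Markers of other blood cells were measured beside the red cell genes, and their part in any result above was not tested. Platelet markers, 9 of 12 tested, summed to 16.2 to 25.5 CPM in untreated and 22.0 to 31.1 CPM in AAV9 Lmna WT, with 0 called by edgeR, DESeq2 or limma-voom and 1 at an unadjusted p under 0.05. Their 2 most abundant genes, Pf4 and Gp1ba, had log2 fold changes of 0.81 and 0.02. Neutrophil markers, 6 of 13 tested, summed to 5.29 to 18.2 and 4.34 to 12.2 CPM, with 0 called by the same 3 tools, 0 at an unadjusted p under 0.05, and Elane and Ly6g at 0 counts; Ltf and Lcn2 were at -1.96 and -0.95.

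Lymphocyte markers, 8 of 12 tested, summed to 2.91 to 12.6 CPM in untreated and 15.9 to 22.3 CPM in AAV9 Lmna WT, with 3 called higher, among them Ighm (1.59) and Cd2 (1.45), at edgeR adjusted p-values of 0.0119 and 0.0479. Cd2 had 3, 4 and 6 counts in untreated replicates 6, 7 and 8 and 7 to 16 in AAV9 Lmna WT libraries. Its call was lost in several settings, among them library totals, limma-voom and each untreated library left out in turn. DESeq2 called 4 lymphocyte markers, limma-voom 2, and 1 was called with Ensembl features alone. Macrophage markers, 11 of 12 tested, summed to 174 to 727 and 592 to 680 CPM. Of these, 0 were called by edgeR, 1 had an unadjusted p under 0.05, and 2 were called by DESeq2 and by limma-voom. Without untreated replicate 7, 9 were called higher by edgeR. Features called higher also rose in that setting, to 4773 of 28153 from 2843 of 26717. The most abundant, Lyz2 and Mrc1, were at 1.02 and 0.50. Endothelial markers, all 10 tested, had 4 called higher and 1 lower, with Cldn5 at 1.20, Tie1 at 0.67, Egfl7 at 0.64 and Flt1 at -0.40, and 1 higher and 1 lower with Ensembl features alone. Cardiomyocyte markers had 2 of 10 called higher, Myl3 and Myl2 at 0.37 each, and 2 lower, Ttn (-0.77) and Actn2 (-0.43). The length and GC correction put Ttn at 0.31, Myl3 at -0.049 and Myl2 at -0.042. With Ensembl features alone 0 were called higher. The call of Myl2 (edgeR adjusted p = 0.0492) was also lost with library totals and without untreated replicate 6 or 7 or any AAV9 Lmna WT library. That of Myl3 was also lost without AAV9 Lmna WT replicate 3 or 5.

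The genes whose levels followed the red cell genes most closely were sought among 13431 Ensembl genes, by Pearson's r over the 8 libraries with the mean standardised log2 CPM of the 6 genes other than Car2. The highest were Prr15 (r = 0.966), Arpp19, an inhibitor of protein phosphatase 2A (0.959), Pex5l (0.932), Gspt2, a translation release factor (0.931), and the ribosomal protein gene Rps25 (0.931). Prr15 was at 0.656, 2.00 and 1.91 CPM in untreated replicates 6, 7 and 8 and at 1.87, 2.16, 1.19, 1.37 and 2.26 CPM in AAV9 Lmna WT replicates 1 to 5, lowest in the same 3 libraries as Hba-a1. None of the 5 was called between the groups. When Hba-a2 was left out of the mean, an alternative added after the data were seen, Prr15 and Gspt2 stayed among the 5 highest and Tsg101, Itgb3 and Frem1 joined them. These r values describe 8 libraries that fall into 2 sets and carry no test.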

How the data were processed

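Per the deposited tables, the authors counted reads without strand over Ensembl and NONCODE features, as raw counts with no normalization, in a table for each library. TopHat2, HTSeq, limma and edgeR are named in the submitters' processing notes, with the builds GRCm38 and mm10, but no versions or roles. The 5 summary lines of each table stayed out of library sizes and tests; reads on more than 1 feature (21.0 to 26.4% of uniquely aligned reads) or aligned to more than 1 place are not in gene counts.

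Symbols, coordinates and transcripts came from GENCODE M21 (53274 of 53465 Ensembl identifiers matched), promoters from RefSeq. edgeR 4.0.16 (R 4.3.3) used filterByExpr, TMM over all features, robust quasi-likelihood fits with the group as the only term, and Benjamini-Hochberg adjustment over 26717 features at 0.05; it was tested on simulated data. Log2 fold changes are AAV9 Lmna WT over untreated. Library measures were compared by exact permutation over 56 splits.

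The 16 gene lists (191 entries, 190 matched) and the members were chosen with earlier results of these data known. Text names up to 4 called genes per list with the smallest p, or else 2 with the highest mean CPM, and the 5 genes most like the members (mean log2 CPM of at least 0). Any other gene was picked with its values in view. Some genes are not reported here, though list counts hold them. Alternatives were RLE size factors, library totals, globin counts removed before scaling, DESeq2 1.42.0, limma-voom (limma 3.58.1), no filter, 1 CPM in 3 libraries, Ensembl features alone, a loess length and GC correction, each library left out, and untreated replicates 6 and 8 left out.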

Additional observations from a re-analysis of the deposited data

Results flagged for a closer look

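Of 70 sets of values examined in the 5 AAV9 Lmna WT libraries, 2 held a library far from the others, where chance gives about 1 in 20. Epb41 was at 102 CPM in AAV9 Lmna WT replicate 1, with the next library at 82.1 and the lowest at 77.5 CPM. Ltf, a neutrophil granule gene, was at 2.61 CPM in AAV9 Lmna WT replicate 3, with the next library at 0.947 and the lowest at 0.472 CPM.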

How the results depend on the processing

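No hemoglobin or erythroid gene was called in 17 of the 18 alternatives; Slc4a1 alone was called higher without untreated replicate 7 (1.19). No paired analysis was possible because the groups share no replicate number. With library totals, Ensembl features alone, the length and GC correction, and without untreated replicates 6 and 8, features called higher numbered 1598, 660, 352 and 1139; in the latter 3 settings features called lower numbered 1307, 755 and 1004. Several fold changes turned sign. Hba-a1 was at -0.047 with library totals, -0.070 with limma-voom, -0.011 with at least 1 CPM in 3 libraries, -0.14 with Ensembl features alone, -0.34 after the length and GC correction and -0.23 without untreated replicates 6 and 8. Hbb-bs was at -0.049, -0.24 and -0.29 in the last 3 of these settings. Car2 was at -0.036 with Ensembl features alone and -0.20 after the correction, and Slc4a1 at -0.23 without untreated replicates 6 and 8. Without those 2 libraries Pf4 was at -0.12, Ltf at 1.39, Lcn2 at 0.12, Lyz2 at -0.041 and Mrc1 at -0.10. Gp1ba was at -0.057 with library totals, -0.032 with at least 1 CPM in 3 libraries, -0.19 with Ensembl features alone and -0.29 after the correction, which also put Ttn at 0.31, Myl3 at -0.049 and Myl2 at -0.042. The cause was not tested.

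With each library left out in turn, features called higher numbered 1528 to 4773 and lower 2207 to 5260, the highest of both without untreated replicate 7, and member genes called higher 0 to 1. Log2 fold changes ran from -0.20 to 0.23 for Hba-a1, 2.22 to 3.82 for Hba-a2, -0.14 to 0.40 for Hbb-bs, -0.45 to 0.075 for Hbb-bt, -0.41 to 0.0057 for Alas2, 0.21 to 1.19 for Slc4a1 and 0.0027 to 0.34 for Car2. They ran from -0.13 to 0.21 for Gp1ba and from -2.54 to 1.82 for Ltf, positive only without untreated replicate 8. Non-unique alignments per 100 uniquely aligned reads, untreated minus AAV9 Lmna WT, ran from -14.7 to 2.77, positive only without untreated replicate 6.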

Other observations

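Among the fixed pathway lists, the levels over the 8 libraries most like the mean of the red cell genes were those of Trf, the transferrin gene (Pearson r = 0.846, rank 65 of 13431), and Slc25a37, the mitochondrial iron importer used in heme synthesis (0.839, rank 76). They were named after their values were seen, and the r values describe 8 libraries without a test. Slc25a37 was at 15.9, 22.1 and 20.6 CPM in untreated replicates 6, 7 and 8 and at 18.5, 20.0, 20.0, 17.5 and 25.6 CPM in AAV9 Lmna WT replicates 1 to 5. Tfrc, the transferrin receptor, was at 116, 373 and 324 CPM and at 207, 712, 655, 528 and 467 CPM in the same order, lowest in untreated replicate 6 and AAV9 Lmna WT replicate 1 (log2 fold change 0.92, edgeR adjusted p = 0.186).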
